A study of Mus musculus with 30 samples.

Results

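The cytosolic ribosomal protein genes are the Rpl and Rps genes of the deposited mouse microglia table: symbols formed of Rpl or Rps, a number and at most a letter and a further number, together with Rplp0, Rplp1, Rplp2 and Rpsa. Of the 13788 genes in the table, 82 met that rule, 49 of the large and 33 of the small subunit, and all 82 passed the filter on low values. Of these, 77 encode standard subunit proteins and 5 are paralogues (Rpl22l1, Rpl7l1, Rpl39l, Rps27l and Rps4l). The rule dropped 7 pseudogene rows and 9 rows of the Rps6k kinases, and 4 further rows (Rpl36al, Rpl37rt, Rps19bp1 and Rps27rt) fell outside it. The fusion gene Fau, which encodes the ribosomal protein eS30, also lies outside the symbol pattern.

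Primary microglia, the resident macrophages of the brain, were cultured from mouse brain, collected by shaking, and sequenced as 30 libraries in 10 groups of 3. The groups are wild type (WT) and PD-1 KO at 0 h, at 2 h and 8 h without treatment, and at 2 h and 8 h with conditioned medium that contained amyloid-beta (2 h Ab and 8 h Ab). Pdcd1 encodes PD-1, a receptor that restrains immune cells. The strain, the age of the animals, the knockout allele, the medium of the untreated cultures and the animal behind each library are not given, so p-values reflect only the scatter among the libraries sequenced, which may be technical.

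The values, here called signal, are gene read counts scaled by library size factors, with 1 as the lowest value allowed. Libraries held 4227019 to 48509985 reads (median 9603082). Pdcd1 sat at that lowest value in each of 15 WT libraries and between 6.02 and 25.3 in the 15 labelled PD-1 KO, so the targeted gene goes against the labels; WT and PD-1 KO below always mean libraries so labelled, and every genotype direction depends on those labels. Which part of Pdcd1 the knockout removes is not given, so reads from outside that part would check nothing. All 10 microglia markers were above the floor in every group, with summed signals of 48353 to 115976. Astrocyte markers summed to 1356 to 4241 over 10 genes in the libraries labelled WT and to 11857 to 30219 in those labelled PD-1 KO, and these ranges did not overlap. At 2 h by label, 6 of 6 markers of ciliated cells were called higher in PD-1 KO by limma and 0 lower. Of the oligodendrocyte lineage 7 of 11 were called higher and 3 lower. Of neurons 3 of 8 were called higher and 0 lower, and of fibroblasts and vessels 3 of 9 and 1. Of all genes 32.2% were called in either direction there, which the counts of the neuron and the fibroblast and vessel lists are near. In bulk RNA, fewer cells of a type and less RNA per cell cannot be told apart.

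A cytosolic ribosome carries a small subunit, which reads the mRNA, and a large subunit, which joins amino acids, and nearly every ribosomal protein is needed in the same number per ribosome. The mRNAs of these proteins begin with a C followed by a run of pyrimidines, the 5' terminal oligopyrimidine (TOP) motif, through which mTOR signalling controls their translation. Several proteins, among them Rpl5 and Rpl11, also act outside the ribosome, where they bind MDM2 and so link ribosome assembly to p53.

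The promoters of these genes were read from the RefSeq promoter table (GRCm38.p6), which matched 61 of the 82 by symbol, each with 250 bases before and 50 after the start of the gene. Of the 61, 52 had 1 start listed, and a gene with more starts counted if any of its windows held the motif. Among the motifs searched on both strands, CTTTCC (reverse GGAAAG) was found for 32 of the 61 members, or 52.5%. It was found for 29.3% of 27025 gene symbols in the promoter table. Of the 10402 other genes measured here that have a promoter in it, 30.4% held the motif. CCGGAAG (reverse CTTCCGG), the letters of an ETS-type site, was in 26 of the 61, or 42.6%, against 9.93% of all symbols and 18.9% of the other genes measured here. Neither motif contains the other, though both can share bases where they abut, and 16 members held both. Shown are the stretches, 100 bases before to 20 after the start, of genes whose values the results turn on, with the matches in capitals. Rps3a1 and Rps7 were the members called lower in PD-1 KO in the most conditions, Rpl39l had the largest difference, and Rpl22l1 was the only member called higher by label by limma. On mm10 the annotated genes span chr3:86137940-86142702 (Rps3a1), chr12:28630854-28635953 (Rps7), chr16:10170226-10174911 (Rpl39l) and chr3:28805436-28807424 (Rpl22l1).
Rps3a1, chr3:86142649-86142768, minus strand: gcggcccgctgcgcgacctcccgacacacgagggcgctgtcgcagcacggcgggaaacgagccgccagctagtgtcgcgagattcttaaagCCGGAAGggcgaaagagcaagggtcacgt
Rps7, chr12:28635934-28636053, minus strand: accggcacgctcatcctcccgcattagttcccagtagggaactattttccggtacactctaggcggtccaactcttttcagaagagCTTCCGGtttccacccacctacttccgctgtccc
Rpl39l, chr16:10170128-10170247, plus strand: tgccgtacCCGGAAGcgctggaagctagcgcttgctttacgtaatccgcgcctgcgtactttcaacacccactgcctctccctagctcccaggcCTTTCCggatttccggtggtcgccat
Rpl22l1, chr3:28805408-28805527, plus strand: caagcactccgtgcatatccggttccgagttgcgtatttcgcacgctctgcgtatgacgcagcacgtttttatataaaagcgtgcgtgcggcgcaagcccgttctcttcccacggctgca
The first of these held 1 match, the second 1, the third 2 and the last 0, which says only that these letters are or are not in the window.

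None of the 2460 member values was at the floor. The lowest, that of Rpl39l in PD-1 KO 2 h library 3, rested on 4 reads. The mean signal, which is not corrected for length and so does not order the genes, was 11499 ± 1501 (SD, n = 30 libraries) for Rpl4, 10495 ± 1785 for Rplp0 and 10384 ± 1948 for Rpsa. Per coding length, Rpl41, whose coding length of 75 nucleotides is the shortest, was highest at 59467 signal per coding kb, and Rps29 and Rplp1 followed at 26870 and 23171. The lowest was Rpl39l, a paralogue of Rpl39, at 132, and Rpl34 was at 493. Rpl30 and Rpl34 had mean signals of 174 and 173. The pseudogene row Rpl34-ps1 stood at 2503 and Rps27rt at 1959, and how reads shared between near-identical copies were counted is not given, so levels of members with such copies are uncertain. Rps4l is annotated as a transcribed pseudogene without a coding sequence, so it has no level per coding length. It stayed a member because the rule drops pseudogenes by symbol (-ps) only.

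**Figure D1:**
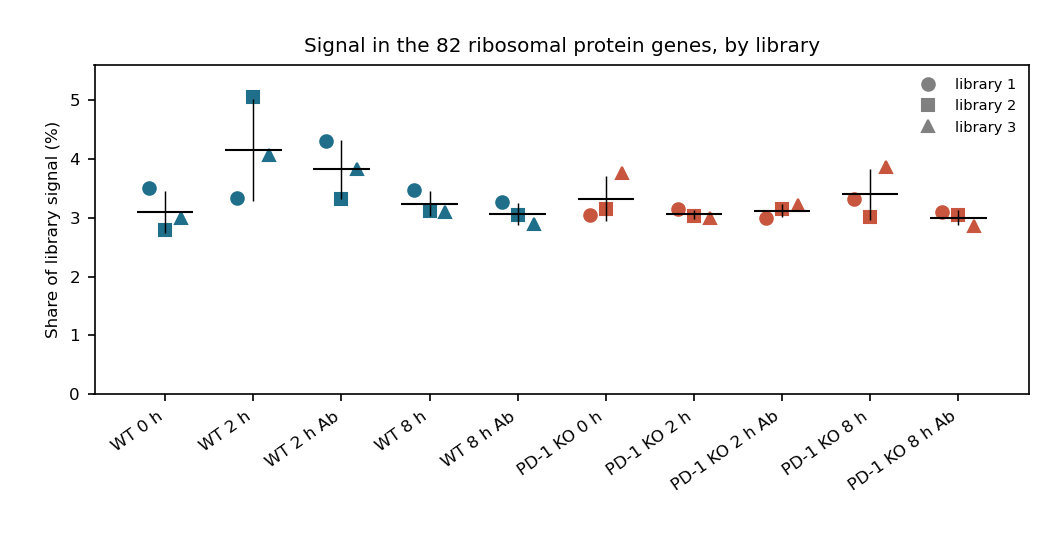
The share of each library's signal held by the 82 ribosomal protein genes (y axis, percent) by group (x axis), for libraries 1, 2 and 3 (circle, square, triangle); the bar is the mean and the vertical line 1 SD. The highest point is WT 2 h library 2 at 5.05%, and the WT 2 h and WT 2 h Ab libraries spread most.

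The members held between 2.80% and 5.05% of a library's signal, with a median of 3.15% over the 30 libraries. In WT 0 h the share was 3.50%, 2.80% and 2.99% in libraries 1, 2 and 3, a mean of 3.10% ± 0.363 (SD, n = 3). In WT 2 h it was 3.33%, 5.05% and 4.07%, a mean of 4.15% ± 0.865, so library 1 lay within the WT 0 h range and library 2 had the highest share of all 30. In WT 2 h Ab it was 4.31%, 3.32% and 3.84%, a mean of 3.82% ± 0.496. The 3 PD-1 KO 2 h libraries lay closest together, at 3.14%, 3.04% and 2.99% (mean 3.06% ± 0.0764), and outside WT 2 h and WT 2 h Ab no library was above 3.86%. Library 3 was highest in PD-1 KO 0 h, at 3.05%, 3.15% and 3.76%.

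Within WT 2 h, nearly every member ranked the 3 libraries in the same order. The deviation of a gene is its log2(signal + 1) minus its mean over the 30 libraries, and the median over the 82 members was 0.03 in library 1, 0.74 in library 2 and 0.41 in library 3. All 82 members lay above the WT 2 h group mean in library 2, 0 of 82 in library 1 and 50 of 82 in library 3. Library 1 was lowest, library 3 in between and library 2 highest in 81 of the 82 members (98.8%), against 23.1% of the other genes. Within WT 2 h Ab the medians were 0.57, 0.04 and 0.33, all 82 members lay above the group mean in library 1 and 0 of 82 in library 2, and the order library 2, library 3, library 1 held in 76 of 82 (92.7%), against 24.5% of the other genes. Both subunits took part: in WT 2 h library 2 the median was 0.72 for the large and 0.77 for the small subunit, and in WT 2 h Ab library 1 it was 0.56 and 0.57. Each order given is the commonest one among the members of that group, so it was picked from these values. Members share their libraries and are not replicates. A shared order was not limited to these groups. It held in 75 of 82 members in WT 0 h (91.5%, against 21.03% of the other genes), in 72 in PD-1 KO 8 h (87.8%, against 20.4%) and in 65 in PD-1 KO 0 h (79.3%, against 19.7%).

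**Figure D2:**
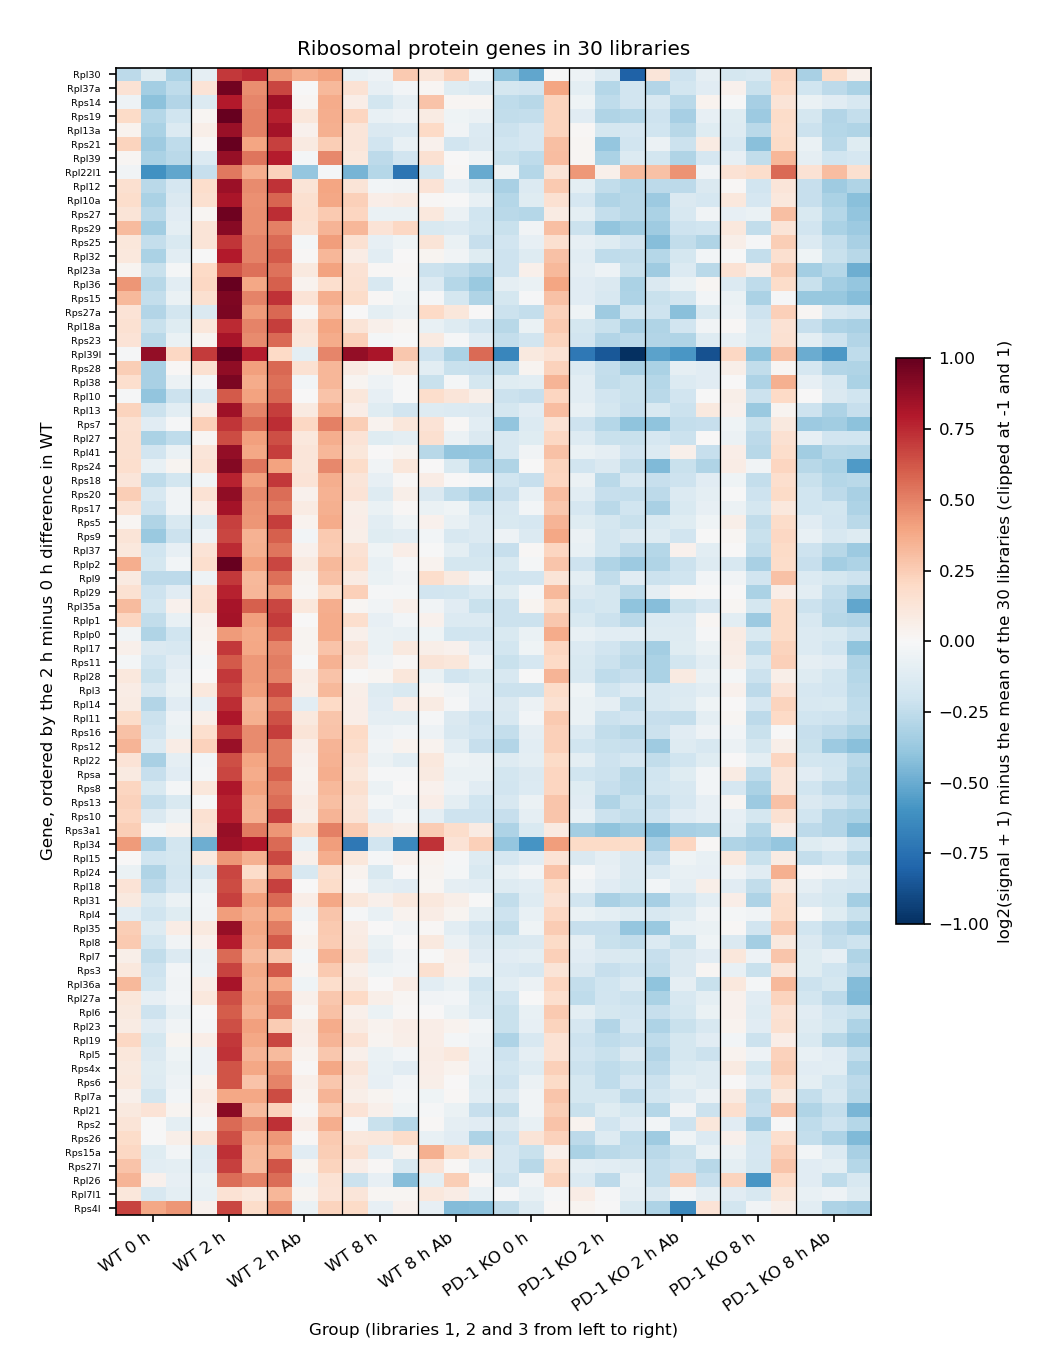
The deviation of each of the 82 members (rows, ordered by the 2 h minus 0 h difference in WT) from its mean over 30 libraries, on the log2(signal + 1) scale, in each library (columns, grouped; 3 per group). Red is above and blue below the mean, clipped at -1 and 1; WT 2 h library 2 and WT 2 h Ab library 1 are red in nearly every row, and WT 2 h library 1 is pale, with a median of 0.03.

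The 3 libraries of WT 2 h differed by a median of 0.73 on the log2 scale (highest minus lowest of the 3) per member, and those of WT 2 h Ab by 0.56, while the other groups ran from 0.13 in PD-1 KO 2 h to 0.44 in PD-1 KO 0 h. For 640 other genes of high signal the same difference was 0.27 in WT 2 h and 0.33 in WT 2 h Ab. In WT 2 h the widest members were Rpl34, at 118, 299 and 289, and Rps27a, the gene of a ribosomal protein fused to ubiquitin, at 4209, 8932 and 6273. Rps21, at 2135, 4379 and 2778, and Rps19, at 3549, 7260 and 4948, followed. The narrowest were Rpl7l1 at 763, 886 and 864, Rpl7a at 1716, 2135 and 2130, Rpl15 at 3071, 3921 and 3697 and Rplp0 at 10603, 13930 and 13504. In WT 2 h Ab the widest were Rps14 at 8773, 4941 and 6295, Rpl39 at 4953, 2834 and 4003, Rpl13a at 10255, 5949 and 7386, and Rpl18 at 5653, 3533 and 3996. The narrowest there were Rpl30 at 231, 218 and 224, Rpl21 at 1186, 1020 and 1202, Rpl5 at 9393, 7756 and 9100, and Rpl23 at 7895, 6981 and 8560.

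Deviations followed coding length in some of these libraries but not in all. The members are short: their median coding length was 453 nucleotides, against 1422 over all genes with a coding length, and 78 of 81 were at most 900 nucleotides long. In WT 2 h library 2, the other genes' median deviation fell from 0.43 for coding lengths up to 300 nucleotides to -0.38 for those over 3000, and in WT 2 h Ab library 1 from 0.34 to -0.47. In library 3 of WT 2 h it fell only from 0.15 to -0.12, and in library 3 of WT 2 h Ab from 0.07 to -0.06, while the members' medians there were 0.41 and 0.33. It did not fall in library 1 of WT 2 h (-0.06 to 0.05) or library 2 of WT 2 h Ab (-0.04 to 0.01). Outside these groups it fell from 0.18 to -0.18 in WT 0 h library 1 and from 0.21 to -0.18 in PD-1 KO 8 h library 3. In PD-1 KO 8 h Ab library 3 it rose from -0.15 to 0.16. With every coding-length class centred in each library, the highest minus the lowest of the 3 libraries' member medians was 0.39 in WT 2 h. Without centring it was 0.72. In WT 2 h Ab it was 0.26, against 0.54 without centring. Centred values and counts, here and below, cover 81 members, because Rps4l has no coding length. The microglia marker sums moved too: in WT 2 h they were 98226, 109657 and 108706 and in WT 2 h Ab 115976, 99824 and 106657 in libraries 1, 2 and 3, with the lowest sum in the library of lowest member level in both groups. Library depth was 11004199, 48509985 and 10299399 reads in WT 2 h, so the highest library was also the deepest of all 30, and 8057104, 10221148 and 7828257 in WT 2 h Ab. Their part in the member levels was not tested.

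**Figure D3:**
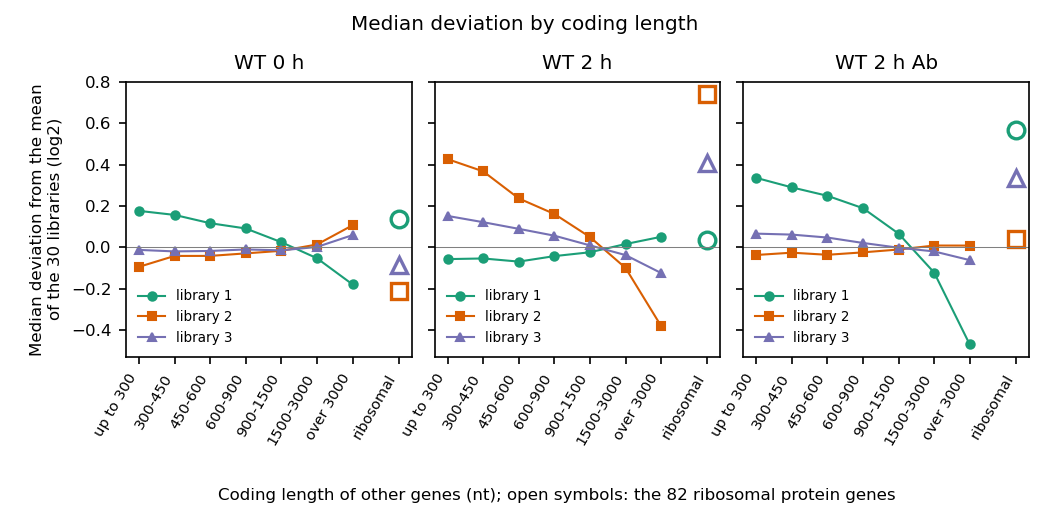
Median deviation from the mean of the 30 libraries (y axis, log2) of the other genes by coding-length class (x axis, nucleotides), as joined points, and of the 82 members as open symbols at the right, for libraries 1, 2 and 3 of WT 0 h, WT 2 h and WT 2 h Ab. Lines slope down most in WT 2 h library 2, from 0.43 to -0.38, and in WT 2 h Ab library 1, and the open symbols of library 3 in WT 2 h and WT 2 h Ab, at 0.41 and 0.33, lie above every point of their own lines.

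At 2 h without treatment, ribosomal protein signals in WT were above those at 0 h by a median of 1.37-fold. Of 82 members, 23 rose and 0 fell by limma (Benjamini-Hochberg adjusted p under 0.05), against 4.75% of all genes called in either direction and 2.59% called higher. The median log2 difference was 0.46, with 75 members at an unadjusted p under 0.05. The members called with the largest differences were Rpl30 (0.69 ± 0.20 SE), Rpl37a (0.67 ± 0.17), Rps14 (0.63 ± 0.18) and Rps19 (0.62 ± 0.19), the last a protein mutated in Diamond-Blackfan anaemia, with adjusted p of 0.0452, 0.0212, 0.0447 and 0.0491 by limma. Rplp0, the scaffold of the ribosomal stalk, rose by 0.46 ± 0.13 (adjusted p = 0.0401), and Rps7, a small-subunit protein, by 0.50 ± 0.13 (adjusted p = 0.0246). The stalk partners Rplp1 and Rplp2 differed by 0.46 ± 0.17 and 0.47 ± 0.17 and did not pass (adjusted p = 0.118 and 0.0991). Of the large subunit 13 of 49 members rose, and of the small subunit 10 of 33. Even so, the libraries overlapped for most: 13 of 82 members had every 2 h value on 1 side of every 0 h value, against 19.5% of all genes.

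That count rests on few libraries. It was 0 without WT 2 h library 2 and 0 without WT 0 h library 2, 1 without WT 0 h library 3, 4 without WT 2 h library 3, 58 without WT 0 h library 1 and 77 without WT 2 h library 1. The median log2 difference was 0.29 without WT 2 h library 2 and WT 2 h Ab library 1. The count was 10 with TMM factors, 78 with array weights, 0 in a fit of only the WT 0 h and WT 2 h libraries and 63 with coding-length classes centred. In the same comparison 6 of 10 microglia markers rose and 0 fell, with Cx3cr1 higher by 1.76 ± 0.19, and 0 of 10 astrocyte markers passed. In WT at 8 h against 0 h, 0 of 82 members passed (median 0.08, 1 at an unadjusted p under 0.05, 0 of 82 with voom on recovered reads), against 6.05% of all genes. The 8 h libraries of both labels carry a separate range of library numbers, and what the numbering stands for is not given. In every comparison of 8 h with 0 h, time and anything that goes with that numbering therefore cannot be told apart. In libraries labelled PD-1 KO, 0 of 82 passed at 2 h (median -0.16, 3 at an unadjusted p under 0.05, background 0.634%) and 0 of 82 at 8 h (median 0.02, 0 at an unadjusted p under 0.05, background 3.29%), and voom on recovered reads also called 0 in each.

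The change from 0 h to 2 h differed between the labels by a median of -0.62 (PD-1 KO minus WT), with 1 member past the threshold, in the lower direction, against 0.736% of all genes in either direction and 0.394% lower, and 76 of 82 at an unadjusted p under 0.05. That member was Rpl23a, a large-subunit protein at the tunnel exit, with -0.70 ± 0.17 (adjusted p = 0.0432 by limma). In WT it stood at 3130, 2629 and 3026 at 0 h and at 3517, 4756 and 4492 at 2 h, all above the 0 h values. In the libraries labelled PD-1 KO it was 2655, 3173 and 3838 at 0 h and 2893, 2971 and 2628 at 2 h, which overlap. The count of members was 18 without WT 0 h library 1, 25 without PD-1 KO 0 h library 1, 63 without WT 2 h library 1 and 0 without any 1 of the other 9 libraries; it was 74 with array weights, 35 with coding-length classes centred, 0 with voom and 0 with only the groups compared. In the same comparison 4 of 10 microglia markers were called lower and 0 higher, Cx3cr1 (-1.87 ± 0.26), Aif1 (-1.45 ± 0.27), C1qa (-1.34 ± 0.25) and Fcrls (-1.32 ± 0.26), and 0 of 10 astrocyte markers were called; their part in the result was not tested. For the change from 0 h to 8 h 0 of 82 differed between the labels (median -0.07, 1 at an unadjusted p under 0.05, 0 with voom, background 0.270%).

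At 0 h the members did not separate by label. Of 82, 0 were higher and 1 lower in PD-1 KO, against 20.7% of all genes in either direction and 6.88% lower, and the median log2 difference was 0.03. The libraries did not overlap for 1 of 82, against 34.1% of all genes. The member called was Rps4l, the transcribed pseudogene, at 379, 310 and 321 in WT and 199, 216 and 238 in PD-1 KO, a difference of -0.62 ± 0.17 (adjusted p = 0.00789). Every WT value lay above every PD-1 KO value.

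At 2 h without treatment nearly all members were lower in the libraries labelled PD-1 KO than in those labelled WT, at a median of 66.6% of the WT signal. By limma 76 of 82 fell and 0 rose, against 32.2% of all genes in either direction and 13.4% lower, with a median log2 difference of -0.59 (0.01 over all genes). Of the large subunit 45 of 49 fell and of the small subunit 31 of 33. The 2 groups did not overlap for 67 of the 82, against 45.8% of all genes. This comparison shares the WT 2 h libraries with the one of 2 h and 0 h in WT, so the values are not independent.

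Rps3a1, a small-subunit protein, stood at 6888, 11541 and 9077 in WT 2 h and at 4990, 4771 and 4938 in PD-1 KO 2 h, a difference of -0.87 ± 0.13 (adjusted p = 7.34e-06). The WT libraries differed by far more than the PD-1 KO libraries, and the groups did not overlap. Each SE and p of the main fit rests on 1 spread per gene, shared by all 10 groups. They therefore do not reflect the scatter of WT 2 h itself, where the libraries differed by a median of 0.73 per member, against 0.13 in PD-1 KO 2 h. Rplp2, a stalk protein, stood at 4016, 7175 and 4749 against 3096, 2907 and 2790, or -0.82 ± 0.17 (adjusted p = 0.000349). Rps29, a small-subunit protein, differed by -0.82 ± 0.16 and Rps7 by -0.81 ± 0.13. Rplp0 was at 10603, 13930 and 13504 in WT and at 9864, 9636 and 9633 in PD-1 KO, or -0.37 ± 0.13 (adjusted p = 0.0284), and Rplp1 at 7993, 13784 and 10321 against 6995, 6679 and 6434, or -0.64 ± 0.17 (adjusted p = 0.0047). Rpsa, which also serves as a laminin receptor, was at 10082, 16295 and 13219 against 8919, 8817 and 8450, or -0.57 ± 0.14 (adjusted p = 0.00286). Rps6, the substrate of the S6 kinases, differed by -0.52 ± 0.12, Rps27a by -0.60 ± 0.18, Rpl3 by -0.52 ± 0.13, Rpl5 by -0.52 ± 0.13 and Rpl11 by -0.57 ± 0.15, and each passed.

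The largest difference was that of Rpl39l, or -1.75 ± 0.31 (adjusted p = 6.26e-05 by limma). It stood at 30.6, 41.2 and 32.6 in WT 2 h and at 10.9, 9.86 and 8.19 in PD-1 KO 2 h. Rpl39l had the lowest mean signal of the members, 20.2, and the value of 8.19 rested on 4 reads. Rpl39, which lines the exit tunnel, differed by -0.57 ± 0.20. Of the 5 paralogues Rpl39l alone passed at 2 h. Rps27 differed by -0.69 ± 0.17 and its paralogue Rps27l by -0.41 ± 0.16 (adjusted p = 0.0502), and Rpl7 by -0.41 ± 0.13 against -0.07 ± 0.09 for Rpl7l1 (adjusted p = 0.61). Rpl22 differed by -0.50 ± 0.13 and Rpl22l1 by 0.05 ± 0.20 (adjusted p = 0.88); the differences within pairs were not tested. The members not called were Rps27l, Rps4l, Rpl24, Rpl34, Rpl7l1 and Rpl22l1. The count was 46 without WT 2 h library 2, and 75 with coding-length classes centred (median -0.45). Beside these values, the astrocyte marker sums were 1947 to 2904 in WT 2 h and 14740 to 24241 in PD-1 KO 2 h, 10 of 10 astrocyte markers were higher, and the microglia marker sums were 98226 to 109657 and 57809 to 71682, with 5 of 10 lower and 1 higher. Their part in the result was not tested.

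At 2 h with amyloid-beta, which uses other libraries, most members were again lower in PD-1 KO, at a median of 72.0% of the WT signal. By limma 69 of 82 fell and 0 rose, against 38.9% of all genes in either direction and 16.7% lower, with a median of -0.47 (0.02 over all genes). Of the large subunit 39 of 49 fell, of the small subunit 30 of 33 and of the paralogues 4 of 5. The groups did not overlap for 68 of 82, against 43.2% of all genes. Rps7 stood at 6114, 4218 and 5201 in WT 2 h Ab and at 2771, 3106 and 3112 in PD-1 KO 2 h Ab, or -0.77 ± 0.13 (adjusted p = 2.37e-05), and Rps3a1 at 8598, 7205 and 8970 against 4657, 5025 and 5075, or -0.74 ± 0.13 (adjusted p = 4.48e-05). Rpl39l differed by -0.86 ± 0.31 and Rps24, a small-subunit protein, by -0.66 ± 0.14. The count was 24 without WT 2 h Ab library 1, 43 without PD-1 KO 2 h Ab library 1 and 22 with quantile normalization, under which Rplp0, Rpsa and Rpl7 changed sign (0.03, 0.04 and 0.0089). Astrocyte marker sums were 2407 to 2769 in WT 2 h Ab and 15131 to 29171 in PD-1 KO 2 h Ab; microglia sums were 99824 to 115976 and 49753 to 59060. Their part in the result was not tested.

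**Figure D4:**
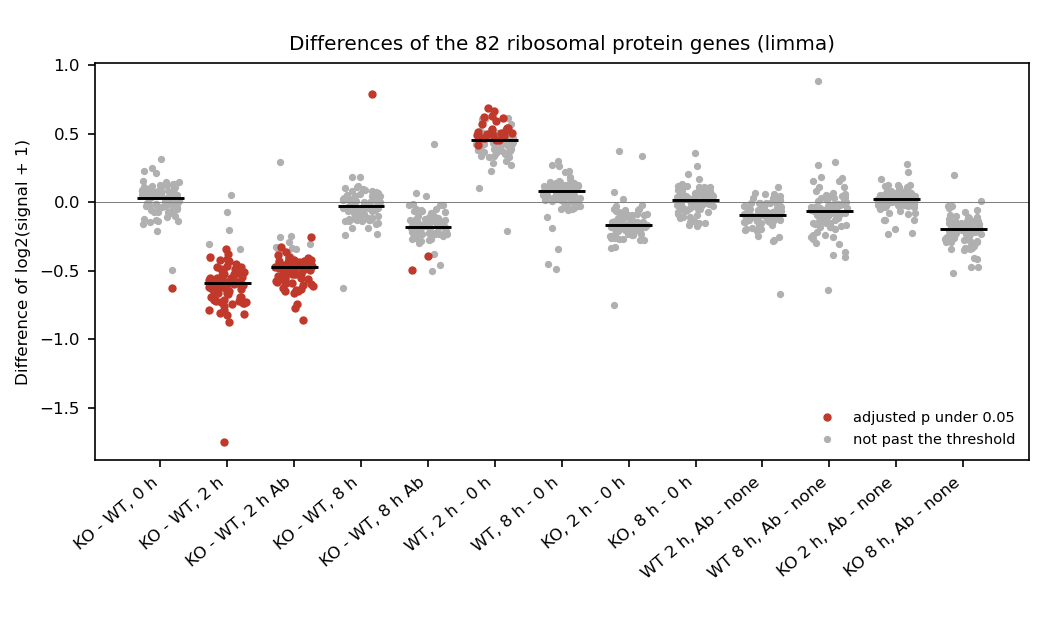
The log2 difference of each of the 82 members (points) in 13 comparisons by limma, coloured red where the adjusted p was under 0.05, with the median as a bar. The red points fill KO minus WT at 2 h and 2 h Ab, at medians of -0.59 and -0.47, and part of WT 2 h minus 0 h, while the medians of the other 10 lie between -0.20 and 0.08.

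At 8 h without treatment 1 of 82 members rose and 0 fell by label, against 27% of all genes in either direction and 18% higher (median -0.03). The libraries did not overlap for 2 of 82, against 40.4% of all genes. That member was Rpl22l1, the paralogue that can stand in for Rpl22, at 144, 163 and 120 in WT and 222, 226 and 296 in PD-1 KO, or 0.79 ± 0.20 (adjusted p = 0.00319). Every PD-1 KO value lay above every WT value, whereas Rpl22 differed by 0.05 ± 0.13 at 8 h.

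At 8 h with amyloid-beta 2 of 82 fell and 0 rose, against 33.7% of all genes in either direction and 11.7% lower, with a median of -0.18. The libraries did not overlap for 42 of 82, against 55.6% of all genes. Those that fell were Rps3a1 (-0.50 ± 0.13, adjusted p = 0.00363) and Rps7 (-0.39 ± 0.13, adjusted p = 0.021). Rps3a1 was at 7537, 7126 and 6688 in WT and at 5277, 5165 and 4690 in PD-1 KO. The count was 1 without WT 8 h Ab library 1, WT 8 h Ab library 2 or PD-1 KO 8 h Ab library 3, and 3 without PD-1 KO 8 h Ab library 1. It was 26 with array weights, 38 with only the groups compared, 12 with coding-length classes centred and 5 with quantile normalization.

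**Figure D5:**
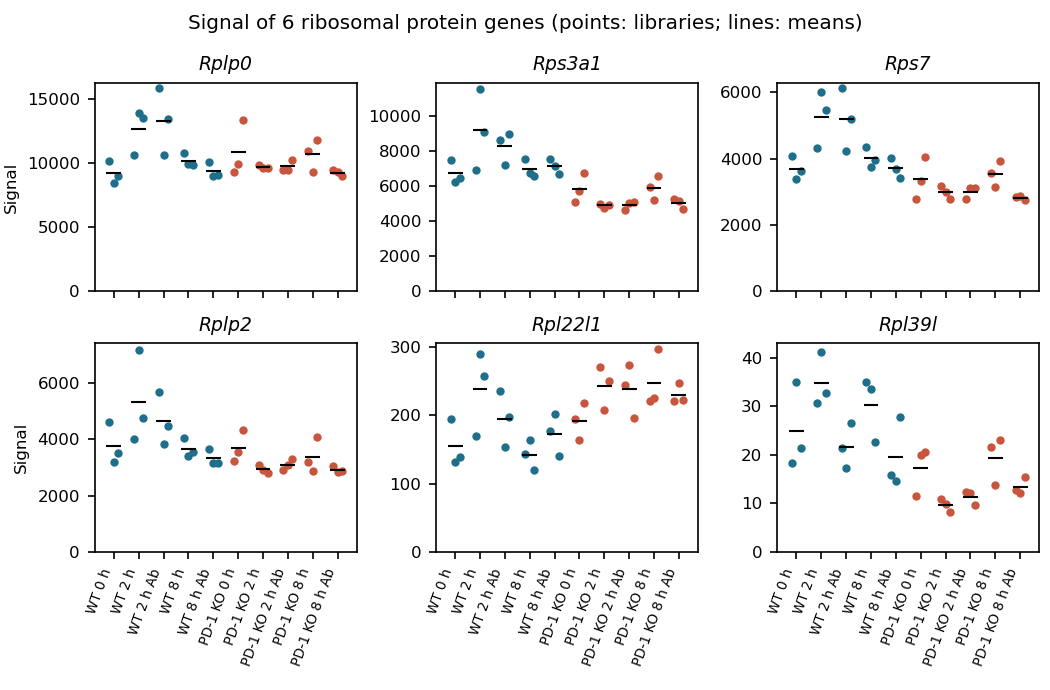
Signal (y axis, linear from 0) of Rplp0, Rps3a1, Rps7, Rplp2, Rpl22l1 and Rpl39l by group (x axis): points are the 3 libraries and the line is their mean. Rps3a1 in WT 2 h lies at 6888, 11541 and 9077, above the 4771 to 4990 of PD-1 KO 2 h, while Rpl22l1 and Rpl39l lie below 300.

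The differences by label were also averaged over all 5 conditions. Their member medians were -0.59 at 2 h and -0.47 at 2 h Ab. They were 0.03 at 0 h, -0.03 at 8 h and -0.18 at 8 h Ab. The average thus rests mainly on the 2 h and 2 h Ab libraries. On it, 75 of 82 members were lower and 1 higher in PD-1 KO by limma, with a median of -0.24. Of all genes 59.5% were called in either direction, 29.1% lower and 30.3% higher. Quantile normalization, which moved the median of all genes to -0.11, left 38 lower and 3 higher, and Rpsa, Rps6, Rpl5 and Rpl7 changed sign (0.05, 0.0037, 0.0076 and 0.092). The members not called were Rpl34, Rpl26, Rpl18, Rps9, Rplp0 and Rpl24. The largest falls were Rpl39l (-0.84 ± 0.14), Rps3a1 (-0.51 ± 0.06), Rps7 (-0.46 ± 0.06) and Rps12, a small-subunit protein (-0.35 ± 0.06), and the gene that rose was Rpl22l1 (0.38 ± 0.09, adjusted p = 0.000633). Of the small subunit 32 of 33 fell and of the large subunit 43 of 49. Rps6, the S6 kinase target, differed by -0.21 ± 0.05, Rpsa by -0.24 ± 0.06, Rpl3 by -0.23 ± 0.06, Rpl5 by -0.22 ± 0.06 and Rpl11 by -0.22 ± 0.07.

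For amyloid-beta medium, 0 of 82 members were called by limma in each of the 4 comparisons. The median difference and the members at an unadjusted p under 0.05 were -0.09 and 1 in WT 2 h (background 0.00%), -0.06 and 7 in WT 8 h (2.18%), 0.02 and 0 in PD-1 KO 2 h (0.00%), and -0.20 and 12 in PD-1 KO 8 h (0.0583%), where the libraries did not overlap for 24 of 82, against 15.2% of all genes. The lowest adjusted p was 0.0863, for Rpl23a in PD-1 KO 8 h (-0.52 ± 0.12), and the median standard error of a member's difference was 0.15. Voom on recovered reads called 0 in each. The difference of the amyloid-beta effect between the labels was called for 0 of 82 at 2 h (median 0.11, 0 at an unadjusted p under 0.05, 0 with voom, background 0.0510%) and at 8 h (median -0.15, 0 unadjusted, 0 with voom, background 0.00%).

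Other genes of the translation machinery were counted in the same comparisons. At 2 h by label, 12 of 20 further translation factors and other genes with TOP mRNAs fell and 1 rose, with a median of -0.32, against 13.4% of all genes lower and a median of 0.01. Those that fell included Fau (-0.74 ± 0.18) and the ribosome scaffold Gnb2l1 (-0.60 ± 0.14); the gene that rose was Vim, the intermediate filament vimentin (0.63 ± 0.11). Of 30 initiation factors 8 fell and 0 rose, led by the RNA helicase Eif4a1 (-0.56 ± 0.11). Of 77 mitochondrial ribosomal proteins 14 fell and 1 rose (median -0.28), so the share lower was near that of all genes, and of 76 nuclear genes of oxidative phosphorylation 36 fell and 0 rose (median -0.35), led by Ndufa6 of complex I (-0.62 ± 0.12). Of 30 ribosome biogenesis factors 1 fell, Wdr12 (-0.37 ± 0.14), and of 14 genes of RNA polymerase I 1 fell, Twistnb (-0.31 ± 0.12), with 0 higher in each and shares lower than the 13.4% of all genes. Of 20 genes of growth control 1 rose, the mTORC1 inhibitor Ddit4 (1.44 ± 0.22), and 2 fell, Sesn1 (-0.39 ± 0.14) and Max (-0.35 ± 0.09). Of 10 genes of the p53 and MDM2 axis Mdm2 (0.27 ± 0.10) and Zmat3 (0.30 ± 0.10) rose and Bax fell (-0.46 ± 0.13). Of all genes 32.2% were called in either direction, a share that neither the growth control list nor the p53 list exceeded. At 2 h Ab, 12 of 20 of the TOP list fell and 1 rose, 14 and 1 of the mitochondrial ribosomal proteins, 25 and 1 of oxidative phosphorylation, 8 and 1 of the initiation factors and 1 and 1 of the biogenesis factors, against 16.7% of all genes lower, which the share of the mitochondrial ribosomal proteins is near. From 0 h to 2 h in WT, Fau rose by 0.71 ± 0.18 and Tpt1 by 0.50 ± 0.14, and 3 of 20 in that list rose in all, against 2.59% of all genes higher and 4.75% in either direction. In that comparison 4 of 76 genes of oxidative phosphorylation rose, Ndufs5 (0.81 ± 0.23), Ndufa6 (0.46 ± 0.12), Atp5g2 (0.39 ± 0.12) and Cox8a (0.39 ± 0.12). Of 30 initiation factors Eif1 rose (0.39 ± 0.11) and Eif4g1 fell (-0.31 ± 0.08). Of 30 biogenesis factors only Tsr1 fell (-0.32 ± 0.09), and of 14 genes of RNA polymerase I only the subunit Polr1a (-0.34 ± 0.10). The shares called in these lists and in oxidative phosphorylation were near the 4.75% of all genes called in either direction. Among 77 mitochondrial ribosomal proteins 0 passed.

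Fau ranked the WT 2 h and WT 2 h Ab libraries as most members did. It was at 4974, 9548 and 6623 in WT 2 h, at 8577, 5550 and 6383 in WT 2 h Ab and at 4479, 3829 and 3968 in PD-1 KO 2 h. Library 2 was again highest in WT 2 h and library 1 in WT 2 h Ab. Rpl36al, outside the rule, was at 946, 1688 and 1369 in WT 2 h but at 1140, 1124 and 1258 in WT 2 h Ab.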

How the data were processed

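RNA-seq of 30 libraries (10 groups of 3) was analysed from a deposited table of signal values. The deposited signal is a gene count scaled by a library's size factor, with 1 as its lowest value, as the values themselves show. Per the submitters' processing notes, HISAT 0.1.5, Partek 6.6, R 3.0.2, DESeq2 and the mm10 build were used; the counting program and annotation are not given in the sources used here. Values were analysed as log2(signal + 1), so fold changes of low genes are understated. Genes reaching 10 in at least 3 libraries were tested (13722), with 1 mean per group and limma 3.58.1 in R 4.3.3 (moderated test with trend, 20 residual degrees of freedom), adjusted by Benjamini-Hochberg over all genes at 0.05. Reads were recovered from each library's step, and depth ran from 4227019 to 48509985. The limma fit and the TMM factors were tested on simulated data with known changes. Shifts shared by a whole library, read recovery, voom and centring by coding length were not simulated.

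The members and gene lists were chosen with earlier results of these data known. The text names, per comparison, up to 4 called members with the largest fold each way, a fixed set of members, those with the widest and narrowest spread, and up to 4 called genes per list. Coding lengths came from GENCODE for GRCm38 and promoters from RefSeq. Alternatives were other pseudocounts, filters and scalings, array weights, fits to only the groups compared and leaving out each library; voom, centring by coding length, and leaving out pairs of libraries were added after seeing the data. Genotype differences of the time effect were also added then. One gene outside the member rule is not reported here.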

Additional observations from a re-analysis of the deposited data

Results flagged for a closer look

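Rpl23a is listed because its change from 0 h to 2 h differed between the labels by -0.70 on the log2 scale (PD-1 KO minus WT, adjusted p = 0.0432 by limma), the only member past the threshold in that test; it was higher at 2 h in 3 of 3 WT libraries than in any WT 0 h library. Leaving out each of the 12 libraries in turn gave -0.57 to -0.83, and the difference no longer passed without 9 of them, passing only without WT 0 h library 1, WT 2 h library 1 or PD-1 KO 0 h library 1. It also did not pass with voom on recovered reads or with only the groups compared.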

How the results depend on the processing

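The edgeR test listed as an alternative was not run, because a lowest value of 1 hides the counts under it; voom on recovered reads took its place. No paired analysis was possible because replicate numbers follow only the order of accessions. Under quantile normalization the members called were 41 over all conditions, 4 at 0 h, 22 at 2 h Ab, 4 at 8 h and 5 at 8 h Ab by label, 1 for amyloid-beta in PD-1 KO 8 h and 2 for the label difference of the 2 h change; Rpsa (0.050), Rps6 (0.0037), Rpl5 (0.0076) and Rpl7 (0.092) over all conditions, and Rplp0 (0.031), Rpsa (0.041) and Rpl7 (0.0089) at 2 h Ab, changed sign, and the median of all genes moved to -0.11. For 2 h against 0 h in WT, 10 were called with TMM factors, with or without the members in them, 78 with array weights, 0 with only the groups compared, 13 with voom, 63 with coding length centred, 1 without WT 2 h library 2 and WT 2 h Ab library 1, and 77 without WT 2 h library 1 and WT 2 h Ab library 2. Array weights called 3 by label at 8 h (1 higher, 2 lower), 26 at 8 h Ab, 5 and 7 for amyloid-beta in WT 8 h and PD-1 KO 8 h, 1 in WT 8 h against 0 h and 74 for the label difference of the 2 h change. With only the groups compared, 38 were called at 8 h Ab, 2 for amyloid-beta in WT 8 h and 0 for that label difference. Voom called 0 for it. Centring by coding length covered 81 members. It left out Rps4l, the only member called at 0 h, which has no coding length, so that call was not retested. With coding length centred, 0 were called at 0 h, 2 at 8 h, 12 at 8 h Ab, 2 and 1 for amyloid-beta in WT 8 h and PD-1 KO 8 h, 1 in WT 8 h against 0 h and 35 for the label difference; 75 and 69 were called at 2 h and 2 h Ab, and the range of member medians in WT 2 h Ab was 0.26. Leaving out WT 2 h library 2 and WT 2 h Ab library 1 gave 43 at 2 h Ab and 0 for the label difference, and leaving out WT 2 h library 1 and WT 2 h Ab library 2 gave 74 for it. TMM factors without the members called 3 at 8 h Ab. Leaving out each library gave 69 to 81 over all conditions, 46 to 79 at 2 h, 24 to 75 at 2 h Ab, 1 to 3 at 8 h Ab, 0 to 77 for 2 h against 0 h in WT and 0 to 63 for the label difference. The causes were not tested. The depth of 4227019 reads limits the shallowest library.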
